A study of Sus scrofa with 27 samples.

Results

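The genes of the cytosolic ribosomal proteins were examined in mural granulosa cells (GCs), the cells that line the inside of the ovarian follicle wall, of sows that had been feed restricted (RES) or full fed (FF) during lactation. Members were all pig Ensembl identifiers paired with an RPL or RPS symbol, or with RPSA, RPLP0, RPLP1 or RPLP2, leaving out the RPS6 kinases. Symbols with a longer run of letters after the number, such as RPL36AL, were not members. The rule gave 56 genes of 35670 identifiers in the files, 28 of the large and 28 of the small subunit. Of these, 54 had a mean count of at least 5 and were tested, 26 of the large and 28 of the small subunit. RPL10L had no count in any library, and RPL3L, a muscle paralog of RPL3, had 20 counts over all 27 libraries. A further 26 symbols of the rule, among them RPS6, RPS19, RPS27, RPL8, RPL26 and RPL39, were not paired with an identifier and were not analysed here, so neither subunit was covered whole.

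All sows were primiparous Large White × Norwegian Landrace. In late lactation the daily ration was 6.5 kg in the FF group (13 sows) and 3.25 kg in the RES group (14 sows), and tissue was taken on day 2 after weaning. From weaning until then, the methods give the same ration for both groups. According to the methods, the RES sows were those with the most and the FF sows those with the least body weight loss of the original groups, so the contrast is one of selected extremes. GCs of the largest healthy follicle of each sow were cut out by laser capture microdissection and made into 1 rRNA-depleted library, so that each library stands for 1 follicle of 1 sow. The study reports that these follicles were smaller in RES than in FF sows. Diet and follicle size therefore cannot be told apart here, and the part of follicle size in the results was not tested. Library totals ranged from 12299220 to 16021200 counts in FF GCs and from 12942198 to 18120922 in RES GCs. Below, a value ± another without further mark is a mean ± SD over the libraries of a group (n = 13 in FF, n = 14 in RES).

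The cytosolic ribosome joins amino acids to protein in the order set by mRNA. Its small subunit reads the codons, and its large subunit forms the peptide bonds and holds the tunnel through which the new chain leaves. The ribosomal proteins are, for the most part, made in nearly equal numbers, carried to the nucleolus and added there to the ribosomal RNAs. Many of their mRNAs start with a cytosine followed by a run of pyrimidines, the 5′ terminal oligopyrimidine (TOP) motif, through which growth signals set how much of them is translated. Growing GCs make much protein and many new ribosomes.

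Because pyrimidine runs at the transcript start are the known shared sequence feature of these genes, the 30 bases around the start annotated by RefSeq on Sscrofa11.1 are shown for 8 members on which the results below turn. The windows run from 15 bases before the start to 15 bases from it, 5′ to 3′ on the transcribed strand. Capitals mark the longest run of C and T that touches the 5 bases on either side of the start, where it had at least 6 bases.
RPS15A, chr3:26776808-26776837, plus strand: agtaTCTTTCTCTgagcgatccaactttat
RPS7, chr3:131263271-131263300, minus strand: tcctggggCCCTCTaggcttccaccgcgtc
RPL4, chr1:164481751-164481780, minus strand: tcgcgagaattggccacgCCCCCTTgtgga
RPL23A, chr12:44956836-44956865, plus strand: tgcagtgttacagttcttggaactgtaatt
RPL7L1, chr7:37940534-37940563, plus strand: cggaagtcggtgggaagcgTTTCCTCgttt
RPS12, chr1:30923378-30923407, minus strand: aTTCTCTTTCCCTgccgccgccgagtcgcg
RPLP0, chr14:40223929-40223958, minus strand: cggcgtacagCCCTCCTCTCgccaggcgtc
RPS27L, chr1:108881315-108881344, plus strand: ggctccctacccgccatacaccagttgagc
Only the transcribed strand was searched. Of the 54 members, 28 (51.9%) held such a run, against 18.6% of the 10501 tested genes with a RefSeq model and 12 of 63 mitochondrial ribosomal protein genes. A run of 6 that begins with C in these positions was found in 18 members (33.3%) and in 10.4% of all these genes. An annotated start can lie some bases from the start used in GCs, so a missing run says only that the letters are not in this window. The median log2 fold change, RES over FF, was 0.17 in the 28 members with a run and 0.18 in the 26 without, and 4 and 1 of them, respectively, passed the test described next. The members lay on 15 chromosomes, with 8 on chromosome 1 and 8 on chromosome 6.

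Of the 54 ribosomal protein genes, 5 passed the test between RES and FF GCs, all of them higher in RES: RPS15A, RPS7, RPL7L1, RPL23A and RPL4. The other 49 did not pass. This is 9.26% of the members. Across all 11384 genes tested with edgeR, 8.29% were called higher and 5.85% lower in RES, 14.1% in either direction, so the share of members called higher was close to the background and that of members called in either direction was below it. Of the 2466 other genes with at least the mean count of the least abundant member, 13.9% were called higher and 19.7% in either direction. No member was called lower. The median log2 fold change was 0.17 over the members and -0.015 over all genes, and 53 of 54 members had a value above 0, from 0.003 for RPLP0 to 0.43 for RPS15A. At an unadjusted p under 0.05 there were 12 members (22.2%), against 30.0% of all genes. In such bulk libraries, fewer cells of a type and less RNA per cell cannot be told apart.

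**Figure D1:**
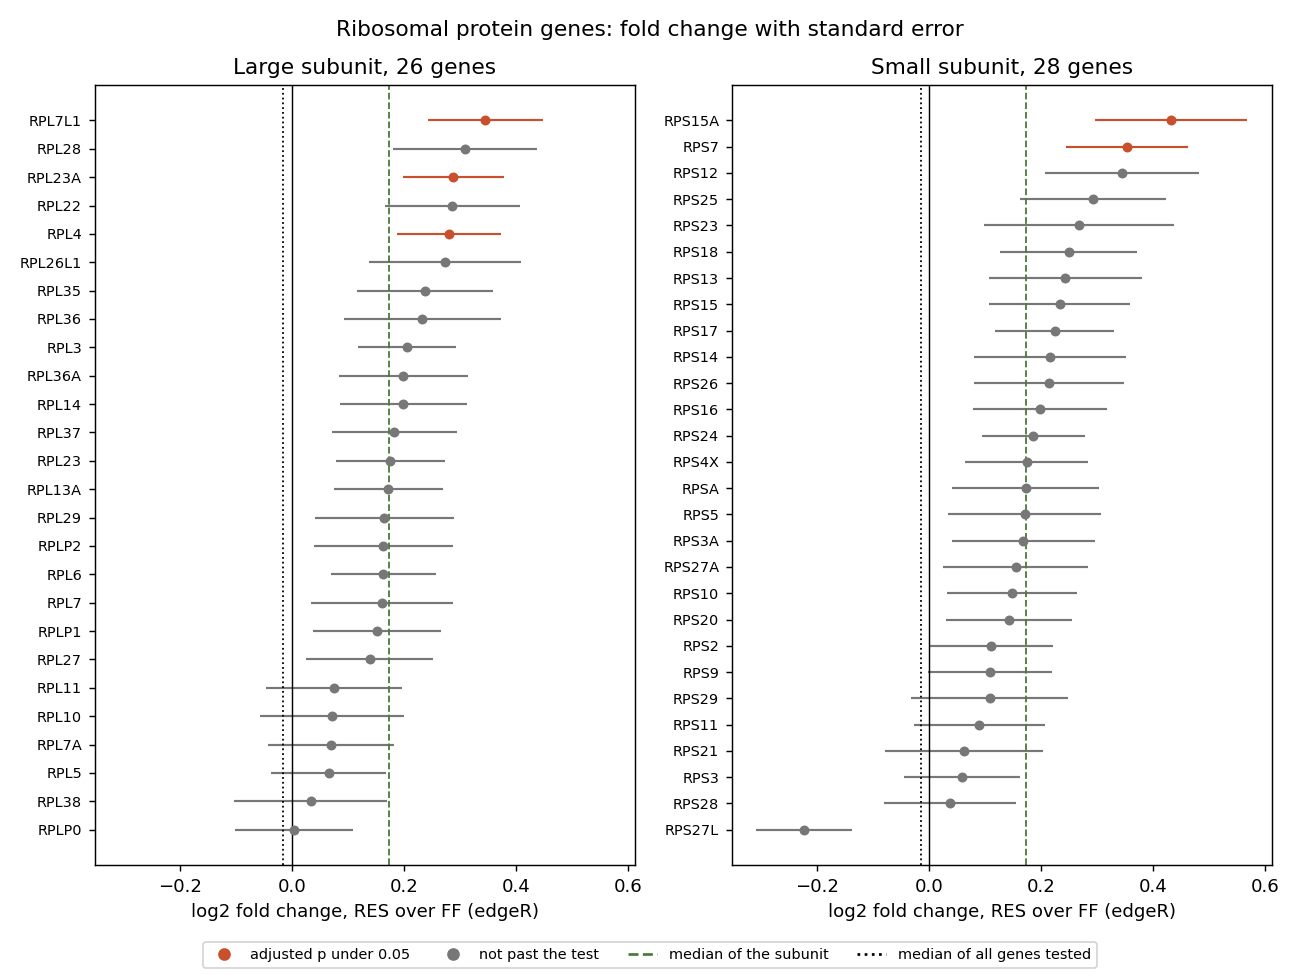
Log2 fold change (RES over FF, edgeR, x axis) of the 26 large and 28 small subunit genes, with bars of 1 standard error. Red points passed an adjusted p of 0.05. Dashed lines mark the median of each subunit (0.17 in both), dotted lines that of all genes tested (-0.015). RPS27L lies alone below 0.

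RPS15A, a small subunit protein, had 1342 CPM (TMM-scaled counts relative to the library size) in the lowest, 2734 in the median and 3505 in the highest FF library, and 2240, 3350 and 5136 in RES. The groups overlapped, and 11 of 14 RES libraries lay above the FF median. The mean was 2517 ± 647 in FF and 3397 ± 759 in RES, and the log2 fold change 0.43 ± 0.14 (SE, edgeR adjusted p = 0.0314), or 1.35-fold.

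RPS7, which joins the small subunit early in its assembly and can bind the p53 regulator MDM2, had 485, 767 and 953 CPM (lowest, median, highest) in FF and 725, 904 and 1287 in RES. Again 11 of 14 RES libraries lay above the FF median. The log2 fold change was 0.35 ± 0.11 (SE, edgeR adjusted p = 0.0290).

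RPL4 reaches into the exit tunnel of the large subunit, and RPL23A lies at its opening. RPL4 had 1169, 1650 and 2188 CPM in FF and 1507, 2073 and 2394 in RES. Of the RES libraries, 12 of 14 lay above the FF median, and the log2 fold change was 0.28 ± 0.09 (SE, edgeR adjusted p = 0.0418). RPL23A had 354, 513 and 662 CPM in FF and 491, 627 and 748 in RES. Here 11 of 14 RES libraries lay above the FF median, and the log2 fold change was 0.29 ± 0.09 (SE, edgeR adjusted p = 0.0315). In both, the ranges of the groups overlapped.

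RPL7L1, a relative of RPL7 that takes part in making the large subunit, was far less abundant, with 62.5, 98.7 and 116 CPM in FF and 87.6, 123 and 152 in RES. Its log2 fold change was 0.35 ± 0.10 (SE, edgeR adjusted p = 0.0245), and 11 of 14 RES libraries lay above the FF median. RPL7 itself had 1900 ± 450 CPM in FF and 2124 ± 421 in RES, and its log2 fold change was 0.16 ± 0.13 (SE, edgeR adjusted p = 0.414), or 0.10 without FF sow 10.

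**Figure D2:**
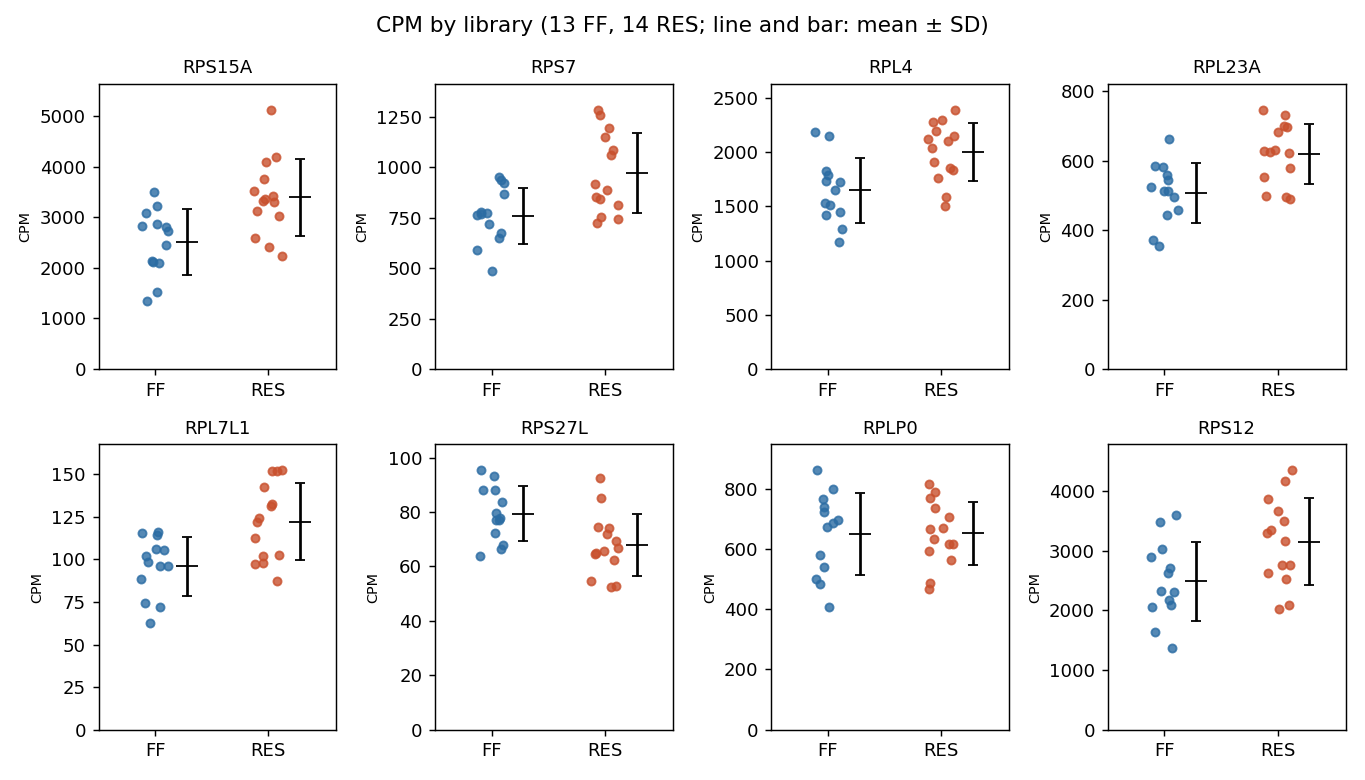
CPM (y axis, from 0) of 8 members in each library, 13 FF in blue and 14 RES in red, with mean and SD beside the points. The groups overlap in every panel. The RES means lie above the FF means in RPS15A (3397 against 2517) and the other 4 called genes, below in RPS27L (68.0 against 79.3) and at the same level in RPLP0 (652 against 651).

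The 5 calls were not equally stable when single libraries were left out. RPL7L1 passed in all 27 such fits, but not with the replicate number as a block, where RPS15A and RPS7 were the 2 members called. RPL4 also lost its call with RIN as a term and with no count filter, and RPL23A with upper-quartile scaling. RPS15A lost its call without FF sow 2, FF sow 8, RES sow 9, RES sow 12 or RES sow 13, and RPS7 without FF sow 2, FF sow 8, RES sow 1, RES sow 9 or RES sow 13. RPL23A lost its call in 7 fits (without FF sows 2, 5, 7 or 8 or RES sows 3, 9 or 13), and RPL4 kept its call in 11 of 27. Without FF sow 2, FF sow 8, RES sow 9 or RES sow 13, RPL7L1 was the 1 member called, and without FF sow 4 or RES sow 7 there were 7, with RPS12 and RPL3 or RPL22 added.

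RPS27L was the exception among the members. It is a paralog of RPS27 and a known target of p53. Its level was 79.3 ± 10.1 CPM in FF and 68.0 ± 11.5 in RES, with 12 of 14 RES libraries below the FF median of 78.0. The log2 fold change was -0.22 ± 0.09 (SE, edgeR adjusted p = 0.0745), which does not pass the test. It passed with upper-quartile scaling and without RES sow 2. Measured against the mean log2 CPM of the other members in the same library, RPS27L stood at -2.86 ± 0.28 in FF and -3.29 ± 0.26 in RES, and 13 of 14 RES libraries lay below the FF median of this difference. That mean was itself higher in RES. RPL11 had the same count of 13 on this measure, and RPL29 and RPS3 had 12. Their shifts, RES minus FF, were -0.084, 0.007 and -0.12, against -0.43 for RPS27L.

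RPL26L1, RPL22 and RPL3, which also belong to paralog pairs, had log2 fold changes above 0 that did not pass the test. RPL26L1, nearly identical in protein sequence to RPL26, had 70.6 CPM in the median FF library and 81.4 in the median RES library. Its log2 fold change was 0.27 ± 0.14 (SE, edgeR adjusted p = 0.171), with 0.13 in the libraries of higher and 0.43 in those of lower base quality. RPL22 had a value of 0.29 ± 0.12 (SE, edgeR adjusted p = 0.106), and RPL3, which lies next to the centre where peptide bonds form, of 0.21 ± 0.09 (SE, edgeR adjusted p = 0.112). RPL3 lay above the FF median in 13 of 14 RES libraries, and its log2 fold change was 0.13 without RES sows 3 and 5.

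The stalk of the large subunit, which calls in the elongation factors, is made of RPLP0, RPLP1 and RPLP2. RPLP0 had 409, 687 and 861 CPM (lowest, median, highest) in FF and 469, 651 and 817 in RES, and its log2 fold change of 0.003 ± 0.11 (SE, edgeR adjusted p = 0.987) changed sign between alternatives. RPLP1 and RPLP2 had values of 0.15 ± 0.11 and 0.16 ± 0.12 (SE, edgeR adjusted p = 0.392 and 0.396). RPLP2 was 0.11 without RES sow 13, and it was -0.016 in the libraries of higher and 0.33 in those of lower base quality.

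RPL5 and RPL11 carry the 5S rRNA into the large subunit and, when free, hold back MDM2. Neither passed the test, with log2 fold changes of 0.07 ± 0.10 for RPL5 and 0.07 ± 0.12 for RPL11 (SE, edgeR adjusted p = 0.713 and 0.722). With 1 library left out, RPL5 ranged from 0.023 (without FF sow 10) to 0.11 (without FF sow 13) and RPL11 from 0.018 (without FF sow 10) to 0.13 (without FF sow 1). RPL11 lay above the FF median in 7 of 14 RES libraries. RPSA, also known as a laminin receptor, had a value of 0.17 ± 0.13 (SE, edgeR adjusted p = 0.395), and RPS14, of the platform of the small subunit, 0.22 ± 0.14 (SE, edgeR adjusted p = 0.292), which was 0.12 without RES sow 3 and 0.083 with voom.

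Levels between genes were compared as mean CPM per kilobase of RefSeq coding length. They covered a 48.2-fold range. The 5 highest were RPS12 (7100), RPS15A (6788), RPS24 (6089), RPS25 (5667) and RPL37 (4525), and the 3 lowest were RPS14 (249), RPL26L1 (176) and RPL7L1 (147). The authors kept uniquely mapped reads, and reads shared with processed copies or paralogs, which ribosomal protein genes have in large number, are then lost, so this order is uncertain and does not have to be the order of the mRNAs. The median was 1202 CPM per kilobase in the large and 1538 in the small subunit, against 42.8 in 63 mitochondrial ribosomal protein genes.

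Of the most abundant members, RPS12 had 2486 ± 660 CPM in FF and 3155 ± 725 in RES, a log2 fold change of 0.34 ± 0.14 (SE, edgeR adjusted p = 0.0898). RPS24 lay above the FF median of 2117 CPM in 14 of 14 RES libraries, although its log2 fold change was 0.19 ± 0.09 (SE, edgeR adjusted p = 0.169). The RPS24 value was 0.070 in the libraries of higher and 0.31 in those of lower base quality. RPS25 and RPL37 had values of 0.29 ± 0.13 and 0.18 ± 0.11 (SE, edgeR adjusted p = 0.127 and 0.275). That of RPS25 was 0.16 in the libraries of higher and 0.44 in those of lower base quality.

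The large and small subunits had like values, and their difference was not tested. The median log2 fold change was 0.17 over the large and 0.17 over the small subunit genes, with 3 of 26 and 2 of 28 called higher. The mean log2 CPM of the large subunit genes was 8.98 ± 0.28 in FF and 9.17 ± 0.22 in RES, and that of the small subunit genes 9.23 ± 0.31 and 9.42 ± 0.25. Small minus large was 0.25 ± 0.04 in FF and 0.25 ± 0.03 in RES. On the log2 of the summed share of counts, which gives more weight to abundant members, RES stood 0.14 above FF for the large and 0.20 for the small subunit. From library to library both means moved as one, with Pearson's r of 0.996 in FF (Spearman's rho 0.973) and 0.995 in RES (rho 0.996), and 0.995 and 0.991 without the 2 libraries farthest from the median. These are descriptions over 13 and 14 libraries, whose genes share library, depth and scaling.

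**Figure D3:**
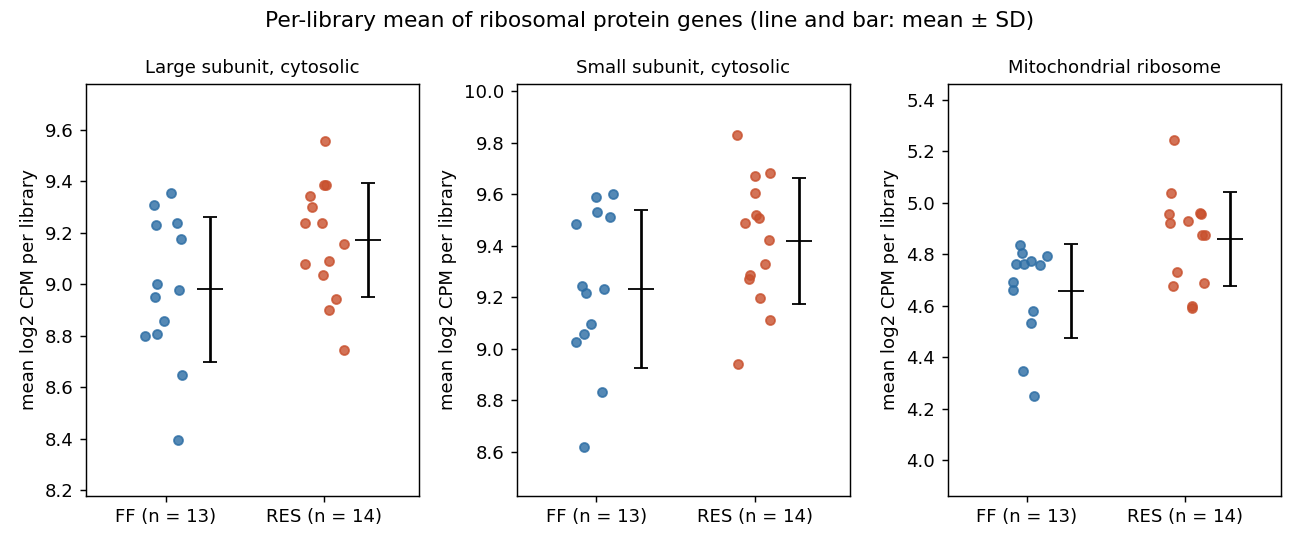
Mean log2 CPM per library (y axis, each panel spanning the same number of log2 units) of large subunit, small subunit and mitochondrial ribosomal protein genes in FF (n = 13) and RES (n = 14), with mean and SD. The RES mean lies 0.19, 0.19 and 0.20 higher, and the groups overlap in all 3 panels.

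Over all 54 members, the mean log2 CPM was 9.11 ± 0.29 in FF and 9.30 ± 0.23 in RES. The difference of 0.19 was smaller than the pooled SD of 0.26 between libraries of a group, and 11 of 14 RES libraries lay above the FF median. Leaving out each library in turn gave 0.14 (without FF sow 10) to 0.22 (without RES sow 7). The members took 4.34% ± 0.81 of the counts of tested genes in FF and 4.85% ± 0.65 in RES. FF sow 10 had the lowest mean (8.51), followed by FF sow 2 (8.74) and RES sow 7 (8.85), and RES sow 13 the highest (9.70). The study lists FF sow 10 with the lowest RNA integrity and the largest share of multi-mapped reads of the libraries used here, although that record may belong to FF sow 9. Its part in the shift was not tested beyond leaving the library out.

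The members varied together between libraries of a group. After group means were taken off, the median Pearson's r over the 1431 pairs of members was 0.71, and 7 pairs were negative. The same value was 0.35 among the 65 mitochondrial ribosomal protein genes, 0.24 among 99 ribosome assembly genes and 0.16 among 33 translation factor genes. The 53 positive fold changes are therefore not 53 separate observations of the diets. Of the 54 members, 39 had an r over 0.8 with the mean of the others, and RPS26 had the highest (0.97). RPL3 (0.36), RPS27L (0.39), RPL7L1 (0.53) and RPL23A (0.55) had the lowest. RPL7L1 and RPL26L1 had r of 0.85 and 0.87 with the mean of the mitochondrial ribosomal protein genes, the highest among the members, whereas RPL23A had 0.08.

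**Figure D4:**
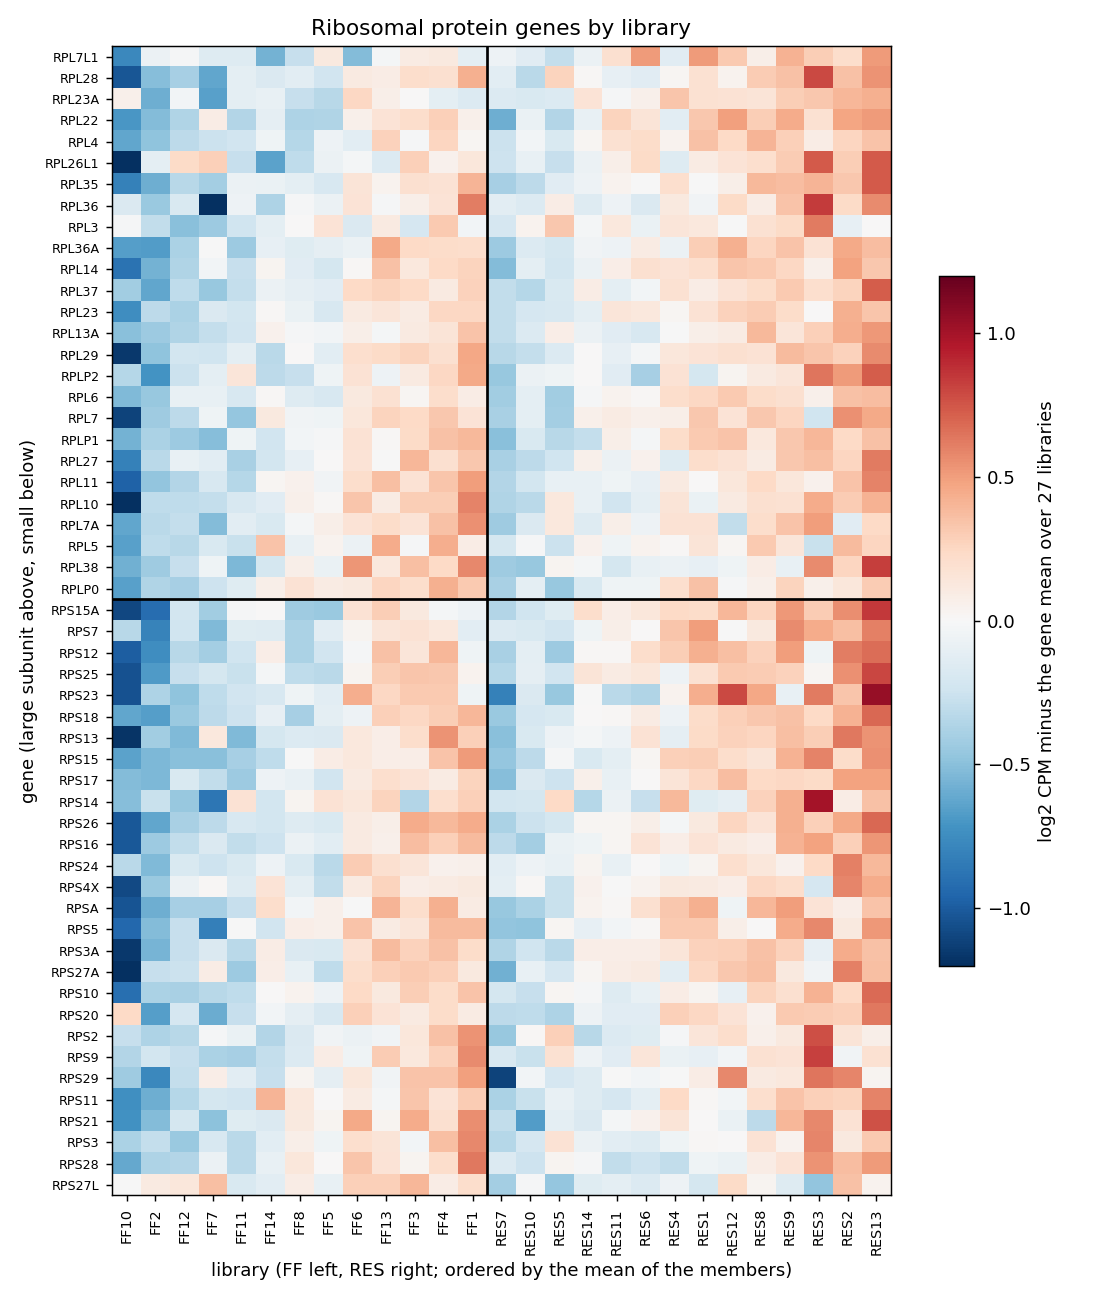
Log2 CPM of each member (rows, large subunit above the line) minus its mean over the 27 libraries, by library (columns, FF left and RES right, each ordered by the mean of the members). Columns of 1 colour show the common movement, from FF sow 10 (mean log2 CPM 8.51) to FF sow 1 (9.48) and from RES sow 7 (8.85) to RES sow 13 (9.70). RPS27L, the lowest row, and RPL3 follow it least, with r of 0.39 and 0.36 with the mean of the other members.

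Single libraries also departed from the common movement. In RES sow 3, RPS14 had 220 CPM against a RES median of 111, RPS9 had 402 against 221 and RPL36 had 468 against 277, while RPS27L had 52.3, the lowest of all libraries. FF sow 10, which had the lowest mean of the members, had 829 CPM of RPS20 and 581 of RPL23A, above the FF medians of 689 and 513. These genes were singled out after their values were seen.

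The genes of the mitochondrial ribosome, which translates the few mRNAs of the mitochondrial genome, stood higher in RES by a like amount. Their mean log2 CPM was 4.66 ± 0.18 in FF and 4.86 ± 0.18 in RES, a difference of 0.20. Of the RES libraries, 9 of 14 lay above the FF median. Cytosolic minus mitochondrial was 4.45 ± 0.25 in FF and 4.44 ± 0.15 in RES, with medians of 4.53 and 4.43 and 3 of 14 RES libraries above the FF median. The difference of these means, RES minus FF, was -0.014 and had no stable sign: it was -0.045 without FF sow 2 and 0.015 without FF sow 6, and -0.059 and 0.035 in the libraries of higher and lower base quality. Of the 65 mitochondrial genes, 16 (24.6%) were called higher and 0 lower by edgeR, and the median of their log2 fold changes was 0.19. MRPL46 (0.62 ± 0.10, adjusted p = 0.00183), MRPL20 (0.58 ± 0.13, adjusted p = 0.00311) and MRPL30 (0.52 ± 0.13, adjusted p = 0.00981, all SE, edgeR) had the smallest p. The 2 medians were alike (0.17 and 0.19), while 9.26% of the cytosolic and 24.6% of the mitochondrial members were called higher. Between these shares no test was made. Between libraries, the 2 means had an r of 0.54 in FF (rho 0.53) and 0.75 in RES (rho 0.73). Without the 2 farthest libraries these were 0.09 and 0.67, so the relation in FF rests on 2 libraries. Within the groups of higher and lower base quality described below, r was 0.11 and 0.84 in FF and 0.51 and 0.84 in RES.

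**Figure D5:**
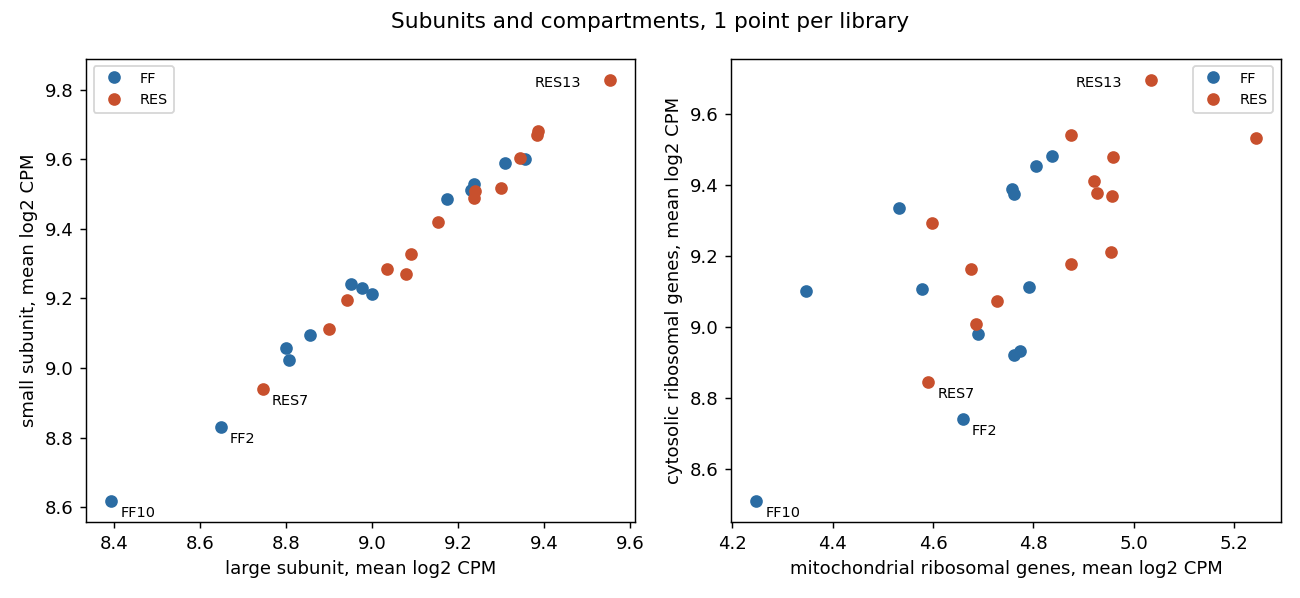
Left, mean log2 CPM of small (y) against large (x) subunit genes. Right, that of cytosolic (y) against mitochondrial (x) ribosomal protein genes. Each point is 1 library, FF blue and RES red. The left points form a line (r of 0.996 in FF and 0.995 in RES). The right points scatter, with r of 0.54 in FF and 0.75 in RES.

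Other genes that make or run ribosomes were read from lists of the same fit. Of 184 such genes, 17 (9.24%) were called higher and 0 lower by edgeR, with 28.8% at an unadjusted p under 0.05. Over all genes tested, 8.29% were called higher, 14.1% in either direction, and 30.0% had such a p. The share of this list was thus close to the background, and its median log2 fold change was 0.12. By list, 13.1% of the assembly, 5.88% of the polymerase I and 5S, 22.2% of the chaperone and 6.06% of the translation factor genes below were called higher. Of 99 ribosome assembly factors 13 were called higher, among them GNL2, a nucleolar GTPase of large subunit assembly (0.33 ± 0.08, adjusted p = 0.00498), NIP7, which acts in the processing of ribosomal RNA (0.44 ± 0.12, adjusted p = 0.0113), and NPM1, an abundant nucleolar chaperone (0.49 ± 0.13, adjusted p = 0.0128, all SE, edgeR). NPM1 had 834 ± 198 CPM in FF and 1172 ± 283 in RES. Of 17 genes of RNA polymerase I and 5S rRNA production, 1 was called, TAF1A (0.32 ± 0.11 SE, edgeR adjusted p = 0.0455). Of 9 chaperones that escort single ribosomal proteins or bind them in the nucleolus, 2 were called higher, BCCIP, which is also among the assembly factors (0.32 ± 0.11, adjusted p = 0.0386), and NAP1L1 (0.27 ± 0.09, adjusted p = 0.0497, both SE, edgeR).

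Of 33 translation factors, EIF4A1, the helicase that opens the mRNA start (0.60 ± 0.13, adjusted p = 0.00403), and EIF2S2, a subunit of the factor that brings the initiator tRNA (0.50 ± 0.13, adjusted p = 0.0131, both SE, edgeR), were called higher. EIF4A1 had 181 ± 44.5 CPM in FF and 275 ± 66.9 in RES. None of 24 regulators of ribosomal protein genes was called by edgeR, with 4 (16.7%) at an unadjusted p under 0.05. FAU, RACK1 and RPL36AL, which make further ribosomal proteins, were not called either and had log2 fold changes of 0.15, 0.08 and 0.12, all with an unadjusted p over 0.05.

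The libraries fell into groups of higher and lower base quality, and the members were also read within each. In the upper group (7 FF, 7 RES), RPL7L1 was called by edgeR (log2 fold change 0.42, adjusted p = 0.0448) and 5 members had an unadjusted p under 0.05, where 17.8% of all genes were called and 34.2% had such a p. The median over the members was 0.13. In the lower group (6 FF, 7 RES), 0 members were called by edgeR, with 4 at an unadjusted p under 0.05, and 1 of 11384 genes (0.00878%) was called in all, with 12.2% at an unadjusted p under 0.05. The median there was 0.22, and 44 members had a value above 0 in both groups. The mean log2 CPM of the 99 ribosome assembly genes was 0.27 higher in RES in the upper group and 0.0075 higher in the lower group, a difference that was not tested. The interaction of diet with quality group called 0 members and 0 of all genes (edgeR), with 0 and 1398 (12.3%) at an unadjusted p under 0.05. The lowest member p was 0.133. The quality record of FF sow 10 may belong to FF sow 9, so its place in the lower group is uncertain.

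Other measures are given beside these results. Among markers of other cell types, 1 of 6 theca, 3 of 8 endothelial, 2 of 6 stroma and 1 of 2 erythroid genes were called lower in RES (edgeR), and none of the granulosa, immune and oocyte markers was called (1, 1 and 0 at an unadjusted p under 0.05). Of the theca markers all 6 were measured, and their summed level was 211 to 679 CPM in FF (mean 398) and 99.3 to 594 in RES (mean 247). CYP11A1, the theca marker called, had 65.9 and 27.2 CPM, and CYP17A1, which did not pass, 116 and 53.7 CPM. The 8 endothelial markers summed to 154 to 310 CPM in FF (mean 212) and 107 to 320 in RES (mean 160), and the 6 stroma markers to 566 to 1623 in FF (mean 998) and 468 to 1578 in RES (mean 816). Immune (3 of 7 measured, 11.5 and 9.07 CPM), erythroid (2 of 5, 2.11 and 1.06) and oocyte markers (2 of 6, 28.6 and 25.3) were low. The granulosa markers (9 of 10) summed to 12142 ± 1876 CPM in FF and 13153 ± 2014 in RES, a difference within the spread that was -723 CPM in the upper and 2854 CPM in the lower quality libraries. Within groups, the mean of the members had an r of -0.36 in FF and -0.44 in RES with the log2 theca sum (rho -0.29 and -0.28, and -0.57 and -0.11 without the 2 farthest libraries) and of 0.41 and 0.47 with the log2 total count (rho 0.43 and 0.44, and 0.14 and 0.28 without the 2 farthest libraries). In the upper and lower quality libraries, the r with the theca sum was -0.63 and -0.03 in FF and -0.33 and -0.71 in RES. That with the total count changed sign, from -0.29 to 0.83 in FF and from -0.15 to 0.78 in RES. With the log2 endothelial sum, r was -0.24 in FF and -0.49 in RES (-0.56 and -0.28 without the 2 farthest libraries). With the log2 stroma sum, r was -0.09 in FF and -0.30 in RES (0.15 and -0.10 without those libraries). Members are short: 41 of 54 have a RefSeq transcript of up to 1000 bases. Of 671 other genes as short, 14.9% were called higher and the median was 0.12 on the log2 scale, against 7.66% and -0.026 among 9713 longer ones. The part of these measures in the shift of the members was not tested.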

How the data were processed

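Mural GC libraries of 13 FF and 14 RES sows, 1 per sow, were used. Per the labels, methods and file headers, the authors aligned reads with HISAT2 2.2.1 to Sscrofa11.1, kept uniquely mapped reads (SAMtools 1.16.1), removed PCR copies with UMI-tools 1.1.4 and counted read pairs on exons of Ensembl release 110 with featureCounts 1.6.2, setting no strand option. The authors deposited raw counts, 1 whole number per gene and library. Symbols came from a table of identifiers, and positions and lengths from RefSeq by symbol. The count minimum (a mean of 5) left 17467 identifiers, of which 6045 without a symbol and 38 small RNAs were left out.

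RES was compared with FF in edgeR 4.0.16 (TMM, quasi-likelihood test, R 4.3.3) over 11384 genes, adjusted after Benjamini-Hochberg and called where the adjusted p was under 0.05. CPM are TMM scaled. Log2 CPM of list means used a prior count of 2. List means carry no p-value. p-values judge the difference between groups against the spread between libraries, in which sow and follicle are not separated. Members and lists were chosen with earlier results of these data known. Named were called members, the 5 most and 3 least abundant per kilobase, paralog pairs, RPSA, stalk and MDM2-related members, RPS14, and the 3 called genes with the smallest p of each other list. FAU, RACK1 and RPL36AL are named outside this rule as a short list. RPS9, RPS20, RPL36 and the theca markers were picked after their values were seen. Quality groups came from a gap in the base quality given in the study's read statistics. On simulated data, the test recovered 46% of genes changed by 0.5 and 86% by 1 on the log2 scale, with 2.94% of calls on unchanged genes. There, 200 of 11384 genes were changed and genes were drawn independently. No change as small as the median of the members (0.17) was simulated, so these rates do not hold for the members. Alternatives were DESeq2 1.42.0, other scalings, filters, covariates, voom weights (limma 3.58.1), a replicate block, subsets of libraries and leaving out each library. A few genes are not reported here.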

Additional observations from a re-analysis of the deposited data

How the results depend on the processing

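The medians of the cytosolic, large subunit, small subunit, mitochondrial and other lists stayed above 0 under all 16 alternatives and in all 27 fits with 1 library left out (cytosolic 0.13 to 0.22 and 0.14 to 0.21). That of the other ribosome and translation genes, 0.12, was 0.22 with the upper and 0.047 with the lower quality group. The counts of calls moved more. Cytosolic genes called higher numbered 5, but 8 with voom quality weights, 1 with the upper quality group alone and 0 with the lower, and 1 to 7 with 1 library left out. One was called lower with upper-quartile scaling, and 0 to 1 with 1 library left out. Mitochondrial genes called higher numbered 16, but 6 with the upper group alone and 0 with the lower, and 13 to 19 with 1 library left out (called lower 0 to 1). The other ribosome and translation genes called higher numbered 17, but 32 with all identifiers fitted, 52 with voom, 27 with the GC percentage as a term, 39 with the upper group alone and 0 with the lower, and 9 to 34 with 1 library left out. Of these, 1 was called lower with voom, 1 with the GC term and 1 in the upper quality group, and 0 to 1 with 1 library left out. The cause of these changes was not tested. The RIN, multi-mapping and GC terms use the record of FF sow 10, which is uncertain. RPLP0 turned negative with DESeq2 (-0.00052), its size factors in edgeR (-0.00049), upper-quartile scaling (-0.019), filterByExpr (-0.0056), voom (-0.021), RIN as a term (-0.019) and the lower quality group (-0.053), and ranged from -0.040 to 0.043 with 1 library left out. RPLP2 was -0.016 in the upper quality group.

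Replicate numbers are shared by the labels but did not pair the sows: over 13 pairs the correlation of deviations was -0.24 to 0.31, 1 was over 0.1, and 0 FF libraries correlated best with the same number. With the replicate block, 2 cytosolic, 9 mitochondrial and 7 other ribosome genes were called higher, and RPLP0 was -0.0032.

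Every member tested had at least 178 counts in each library, so counting error is small beside the spread between sows. Unique mapping and unstranded counting limit members with near-identical copies.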
